A study of Mus musculus and Homo sapiens with 6 samples.

Results

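Regions of open chromatin at the shared ends of neighbouring genes were described in NMuMG cells, an epithelial line from mouse mammary gland. Accessibility was read out with ATAC-seq, an assay whose transposase, Tn5, inserts sequencing adapters into open DNA. The peak lists of 4 libraries were merged wherever peaks overlapped by at least 1 bp, which gave 55702 regions. A region counted as lying at a shared end if no more than 1 kb separated its centre from an annotated end of 2 or more different protein-coding genes that do not overlap each other, and 1201 regions (2.16%) met this rule. They were set against 9621 regions within 1 kb of an end of exactly 1 protein-coding gene, called single-gene regions here. A further 527 regions lay near overlapping genes only and entered neither class.

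The libraries came from 25000, 50000, 75000 and 100000 cells, with 1 library per cell number. All groups were the same unmodified line, passaged fewer than 10 times by the label and collected at 0 h, with no treatment named. A further 2 samples, of MDA-MB-231 human breast cancer cells with a GATA3 label, were not analysed here. The lists held 38878, 43832, 41509 and 45530 peaks in order of rising cell number, each with a whole-number score of 8 or more given by the authors. Read counts do not come with the lists, so the depth is unknown, and scores were used to rank peaks within a list. Of 8 epithelial marker genes, 6 had a region in all 4 libraries within 1 kb of an end, against 1 of 5 blood markers (Spi1), 0 of 4 endothelial markers and 0 of 4 neuronal markers. Among 6 fibroblast or mesenchymal markers, Vim and Col1a1 had such a region. Of all 21900 protein-coding genes, 9231 had one (42.2%). Set against this share, marker lists of 4 to 8 genes allow only a weak contrast.

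Neighbouring genes can share the stretch of DNA between them in several ways. Genes that are transcribed away from each other face each other with their starts (head-to-head), and a short stretch between the starts then serves as a divergent promoter for both. Such promoters are usually rich in CpG and are common among genes for DNA repair, mitochondria and other tasks of every cell. Genes that follow each other on the same strand place the end of one beside the start of the next (head-to-tail), and convergent genes face each other with their ends (tail-to-tail). Gene starts are the usual sites of nucleosome-poor, transposase-accessible DNA, whereas gene ends are as a rule less open.

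The sequences below are shown because each lies between divergent starts under a region found in all 4 libraries. They were taken from RefSeq promoter windows of GRCm38.p6 and are written 5′ to 3′ on the plus strand, from the base after the lower gene to the base before the upper gene. Capitals mark matches on either strand to any of 8 motifs. These are CCAAT for the CCAAT box, which is bound by the factor NF-Y, and GGGCGG for the GC box of the Sp factors. For NRF1, a regulator of genes for mitochondria, the letters were GCGCATG, which can overlap their own reverse complement. The ETS family was searched with CCGGAAG and the factor YY1 with AAGATGG. For the TATA box of the core promoter TATAAA was used. The AP-1 site, bound by Fos and Jun proteins, was TGACTCA and the E-box was written as CACGTG.
Ranbp1/Trmt2a: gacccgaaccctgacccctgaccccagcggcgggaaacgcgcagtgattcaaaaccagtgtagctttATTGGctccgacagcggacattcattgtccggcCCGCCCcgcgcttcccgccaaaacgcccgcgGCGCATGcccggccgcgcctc
Atm/Npat: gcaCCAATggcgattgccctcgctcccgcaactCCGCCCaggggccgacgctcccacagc
Mrps12/Sars2: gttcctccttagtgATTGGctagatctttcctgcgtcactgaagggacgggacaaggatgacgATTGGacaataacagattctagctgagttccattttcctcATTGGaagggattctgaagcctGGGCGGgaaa
Rpa3/Umad1: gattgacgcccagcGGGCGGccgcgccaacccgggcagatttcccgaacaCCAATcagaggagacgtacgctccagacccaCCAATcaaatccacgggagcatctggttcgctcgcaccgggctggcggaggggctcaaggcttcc
Mrpl32/Psma2: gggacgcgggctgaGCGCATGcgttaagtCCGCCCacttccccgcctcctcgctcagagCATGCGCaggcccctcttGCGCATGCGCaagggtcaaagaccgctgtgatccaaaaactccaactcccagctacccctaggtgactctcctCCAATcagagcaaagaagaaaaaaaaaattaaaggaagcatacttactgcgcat
Psmb9/Tap1: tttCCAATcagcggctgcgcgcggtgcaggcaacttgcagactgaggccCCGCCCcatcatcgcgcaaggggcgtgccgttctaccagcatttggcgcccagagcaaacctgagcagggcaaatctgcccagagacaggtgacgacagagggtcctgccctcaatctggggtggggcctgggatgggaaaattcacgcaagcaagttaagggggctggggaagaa
Tctn3/Entpd1: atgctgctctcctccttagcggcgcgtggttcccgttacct

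The stretch between Ranbp1, a regulator of the Ran GTPase, and the tRNA methyltransferase gene Trmt2a lies at chr16:18248695-18248846. It is 152 bp long with 19 CpG and held matches to the CCAAT box, the GC box and NRF1. That between the DNA damage kinase gene Atm and the histone gene activator Npat is 60 bp long, at chr9:53536829-53536888, with 6 CpG, and held a CCAAT box and a GC box match. The Mrps12/Sars2 stretch, at chr7:28741822-28741956, joins a mitochondrial ribosomal protein gene to a mitochondrial seryl-tRNA synthetase gene and held 3 CCAAT matches in 135 bp. Rpa3, a subunit of the single-strand DNA binding protein RPA, and Umad1 share 146 bp at chr6:8259142-8259287 with 2 CCAAT matches. Mrpl32 and the proteasome gene Psma2 share 204 bp at chr13:14613038-14613241 with 4 NRF1 matches, of which a pair overlaps as a palindrome. The immunoproteasome gene Psmb9 and the peptide transporter gene Tap1 share 225 bp at chr17:34187331-34187555 with 12 CpG. Between Tctn3, a gene of the primary cilium, and the ectonucleotidase gene Entpd1, 41 bp at chr19:40612325-40612365 held none of these matches. A match describes letters in this window and is not a measured binding site.

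Regions at shared ends had higher scores, wider peaks and more frequent detection than single-gene regions at every cell number. Their score in a library is the highest score of the peaks they hold there. The median score was 28, 37, 33 and 36 at shared ends from 25000 to 100000 cells, against 23, 28, 26 and 29 in single-gene regions. On the scale of percentiles within a list, the medians were 78.6, 82.9, 81.1 and 81.8 at shared ends, against 71.0, 73.9, 73.0 and 74.7 in single-gene regions. The difference averaged 7.90 ± 0.80 percentile points (SD, n = 4 libraries) and was positive in 4 of 4 libraries, with an exact two-sided sign-flip permutation p of 0.13. That is the smallest p that 4 libraries can give, so no comparison of this kind can pass 0.05, and over 46 such comparisons the smallest Benjamini-Hochberg adjusted p was 0.160. These p-values measure the spread between libraries of 1 line made from different cell numbers.

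High scores were more frequent at shared ends. A score of 50 or more was reached by 22.8%, 33.8%, 28.9% and 34.8% of regions at shared ends, against 13.7%, 22.3%, 18.4% and 23.2% of single-gene regions. Over all regions of each list the shares were 7.01%, 10.6%, 9.09% and 10.9%. Among the 1000 highest-scoring regions outside the mitochondrial chromosome, 102, 111, 105 and 101 lay at shared ends, or 10.2%, 11.1%, 10.5% and 10.1%, where shared ends made up 3.00%, 2.72%, 2.87% and 2.67% of the regions of the list. Among the 100 highest, 4, 6, 7 and 9 did. Shared ends were thus over their share of the list in both ranges, at 4 of 4 cell numbers. Among the 100 highest at 25000 cells, this rests on 4 regions where shared ends were 3.00% of the list. Single-gene regions numbered 35, 41, 36 and 35 among the 100 highest. At 25000 cells they were 7889 of all 35681 regions, so they too were over their share there.

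Of the 1201 regions at shared ends, 998 had a peak in all 4 libraries (83.1%, 95% Clopper-Pearson interval 80.9 to 85.2), against 7000 of 9621 single-gene regions (72.8%, 71.9 to 73.6) and 46.3% of all merged regions. A peak in exactly 1 library was found for 87 regions at shared ends (7.24%, 5.84 to 8.86), against 1083 single-gene regions (11.3%, 10.6 to 11.9). The intervals cover counting error only. Taken from each list, 93.1%, 90.6%, 91.2% and 89.4% of regions at shared ends were found in the 3 other libraries, against 88.7%, 83.6%, 85.5% and 81.6% of single-gene regions. The difference averaged 6.25 ± 1.53 percentage points (SD, n = 4) and was positive in 4 of 4 libraries (exact sign-flip permutation p = 0.13). The regions so found are the same 998 and 7000 in each list, and only the total per list varies. The 4 differences are therefore not separate measurements, and their SD and p do not give a spread between libraries.

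Peaks at shared ends had mean widths of 643, 685, 682 and 710 bp from 25000 to 100000 cells, against 603, 641, 639 and 660 bp in single-gene regions. The difference was 44.5 ± 4.59 bp (SD, n = 4), positive in 4 of 4 libraries (exact sign-flip permutation p = 0.13). At equal score it was 9.05 ± 1.39 bp. The number of peaks per region was close in both classes, at 1.17, 1.17, 1.18 and 1.17 at shared ends against 1.16, 1.16, 1.17 and 1.18 in single-gene regions. Merged regions had a median width of 850 bp at shared ends and 800 bp in the single-gene class.

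The orientation of the genes separated regions at shared ends into groups with different scores. Strand was known for 79.9% of protein-coding genes, and by the nearest pair of non-overlapping genes 575 regions were head-to-head, 275 head-to-tail and 43 tail-to-tail, while 308 could not be oriented. Median scores of head-to-head regions were 31.5, 39, 36 and 40 from 25000 to 100000 cells. Head-to-tail regions had medians of 25, 32, 27 and 31, and tail-to-tail regions 13, 18, 11.5 and 15. Single-gene regions had 24, 30, 28 and 31 at a start and 14, 14, 13 and 15 at an end. The 3 kinds of shared end thus followed the number of gene starts in the pair at each cell number, with the quartile ranges of head-to-head and head-to-tail regions overlapping widely.

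**Figure D1:**
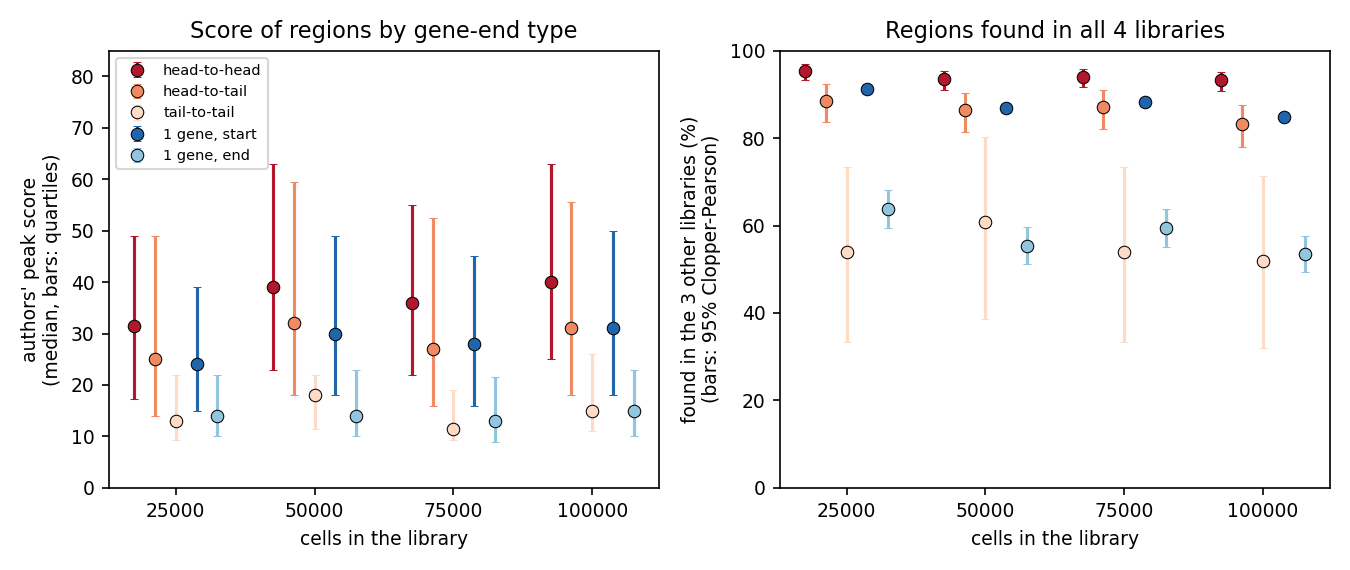
Left, median score by the authors' peak caller (bars, quartiles over regions) and right, share of a library's regions that were found in the 3 other libraries (bars, 95% Clopper-Pearson intervals), for regions at shared ends by orientation and for regions at the start or end of 1 gene, by the number of cells in the library. Head-to-head regions have the highest median in each library (31.5 to 40), and tail-to-tail regions lie near regions at the end of 1 gene.

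Head-to-head regions were compared with regions at the start of 1 gene, so that starts were set against starts. The classes were not matched for the distance of the centre from a start. Their median score percentile was 82.4, 84.3, 83.8 and 84.8 from 25000 to 100000 cells, against 72.8, 76.3, 75.6 and 77.0 at single starts. The difference was 8.41 ± 0.86 percentile points (SD, n = 4) and positive in 4 of 4 libraries (exact sign-flip permutation p = 0.13). Their peaks were wider by 55.5 ± 8.08 bp on average, and by 13.6 ± 1.5 bp at equal score. Of the 575 head-to-head regions, 513 were found in all 4 libraries (89.2%, 86.4 to 91.6) and 17 in 1 library (2.96%), against 5333 of 6845 single-start regions in all 4 (77.9%, 76.9 to 78.9) and 591 in 1 (8.63%).

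Head-to-tail regions, which have a single gene start, lay close to single-start regions in rank. Their percentile medians were 74.4, 78.4, 74.4 and 77.0, against 72.8, 76.3, 75.6 and 77.0 at single starts. The difference of 0.60 ± 1.55 points (SD, n = 4) was positive in 2 of 4 libraries (exact sign-flip permutation p = 0.5). A score of 50 or more was nonetheless reached by 24.2%, 31.0%, 27.5% and 31.1% of head-to-tail regions, against 15.3%, 24.8%, 20.6% and 25.7% of single-start regions. In all 4 libraries 209 of 275 were found (76.0%, 70.5 to 80.9). Mean peak width differed from single starts by -9.31 ± 4.16 bp and the share found in the 3 other libraries by -1.50 ± 0.90 percentage points (SD, n = 4), both negative in 4 of 4 libraries. For the share found, the 4 values again rest on the same regions found in all 4 libraries. Set against head-to-tail regions, head-to-head regions ranked higher by 7.81 ± 1.47 points in 4 of 4 libraries (exact sign-flip permutation p = 0.13).

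Tail-to-tail regions were few and low. Of 43, 14 were found in all 4 libraries (32.6%, 19.1 to 48.5) and 18 in 1 (41.9%), against 316 of 851 (37.1%, 33.9 to 40.5) in all 4 and 268 (31.5%) in 1 among regions at the end of a single gene. Their percentile medians, 42.2, 56.0, 33.7 and 46.7, differed from those at single ends, 46.6, 43.6, 41.0 and 46.7, by 0.19 ± 8.69 points (SD, n = 4, exact sign-flip permutation p = 1). Each library held 23 to 27 such regions, and the sign of the difference varied between libraries.

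A few tail-to-tail regions did score high, and those named here were chosen after their values were seen. The region at the facing ends of Muc1, a mucin gene of epithelial surfaces, and Trim46 lay at chr3:89233351-89234300 and scored 76, 70, 63 and 72 from 25000 to 100000 cells. The one at Dcst2 and Zbtb7b, a gene for a zinc finger factor, scored 49, 68, 73 and 94 at chr3:89378151-89379000. Another, at chr3:104794201-104795000 between the ends of the small GTPase gene Rhoc and the RNA helicase gene Mov10, scored 49, 48, 73 and 61. These 3 regions were thus in the upper range of every list.

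Counted from the side of the genes, shared starts were open far more often than shared ends. There were 2974 pairs of adjacent protein-coding genes whose facing ends were at most 2 kb apart, and 984 of them (33.1%) had a region in all 4 libraries within 1 kb of both facing ends. Among head-to-head pairs 509 of 632 did (80.5%, 77.2 to 83.6), among head-to-tail pairs 205 of 825 (24.8%, 21.9 to 27.9) and among tail-to-tail pairs 16 of 666 (2.40%, 1.38 to 3.87). No region in any library was within reach of both ends for 92, 563 and 621 of these pairs in the same order. Pairs with 1000 to 2000 bp between the ends can hardly meet the rule, since the centre must be within 1 kb of both.

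Close pairs therefore give the fairer view. With under 100 bp between the starts, 260 of 286 head-to-head pairs had a region in all 4 libraries (90.9%), with 100 to under 250 bp 144 of 164 (87.8%), with 250 to under 500 bp 78 of 84 (92.9%) and with 500 to under 1000 bp 26 of 42 (61.9%). Head-to-tail pairs lay between 37.9% and 48.7% and tail-to-tail pairs between 1.12% and 3.92% over the same ranges. As a measure for single genes, 4896 of 14072 starts with no end of another protein-coding gene within 2 kb had a region in all 4 libraries (34.8%, 34.0 to 35.6), and 283 of 13828 such isolated ends did (2.05%, 1.82 to 2.30). A head-to-head pair has a pair of starts within reach of the window and an isolated start has 1.

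**Figure D2:**
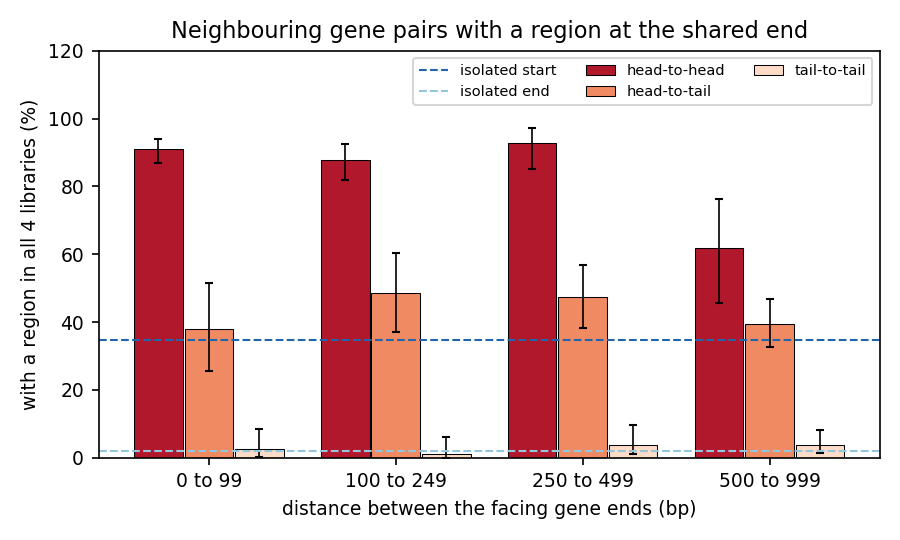
Share of neighbouring gene pairs with a region in all 4 libraries at the shared end, by the distance between the facing ends and the orientation of the pair (bars, 95% Clopper-Pearson intervals). Dashed lines give the share for isolated starts (34.8%) and isolated ends (2.05%), and head-to-head pairs lie above the line for starts at each distance plotted, which end below 1000 bp.

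When a region within 1 kb of either facing end was counted, 548 of 632 head-to-head pairs (86.7%) had one in all 4 libraries, against 414 of 825 head-to-tail pairs (50.2%) and 47 of 666 tail-to-tail pairs (7.06%). In head-to-tail pairs with 1000 to 2000 bp between the genes, the start had a region in 184 of 374 pairs (49.2%) and the end of the other gene in 22 (5.88%). In 11 of these pairs a region lay within 1 kb of both and counted for each, so the ends were only partly told apart. A region was thus found more often at the start than at the end.

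Head-to-head regions usually spanned the whole stretch between the starts. The median distance between the starts was 97 bp, with quartiles of 44 and 217 bp, and 497 of 575 regions (86.4%) covered both starts. Their centre lay a median of 73.5 bp from the nearer start and 172.5 bp from the farther one, and a median of 102.5 bp from the midpoint. Head-to-tail regions had a median of 419 bp between the genes, so coverage was not compared at equal distance. Of these head-to-tail regions 94 of 275 (34.2%) covered both ends and 156 (56.7%) covered 1. Their centre was a median of 22.5 bp inside the gene from its start, against 43.5 bp in single-start regions, and a median of 299 bp from the midpoint of the stretch. Without regard to side, the centre lay a median of 114.5 bp from the start in head-to-tail regions and 128.5 bp in single-start regions. The 73.5 bp of head-to-head regions is likewise without regard to side, and is taken to the nearer of both starts. Of tail-to-tail regions, with a median of 501 bp between the ends, 3 of 43 covered both ends.

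**Figure D3:**
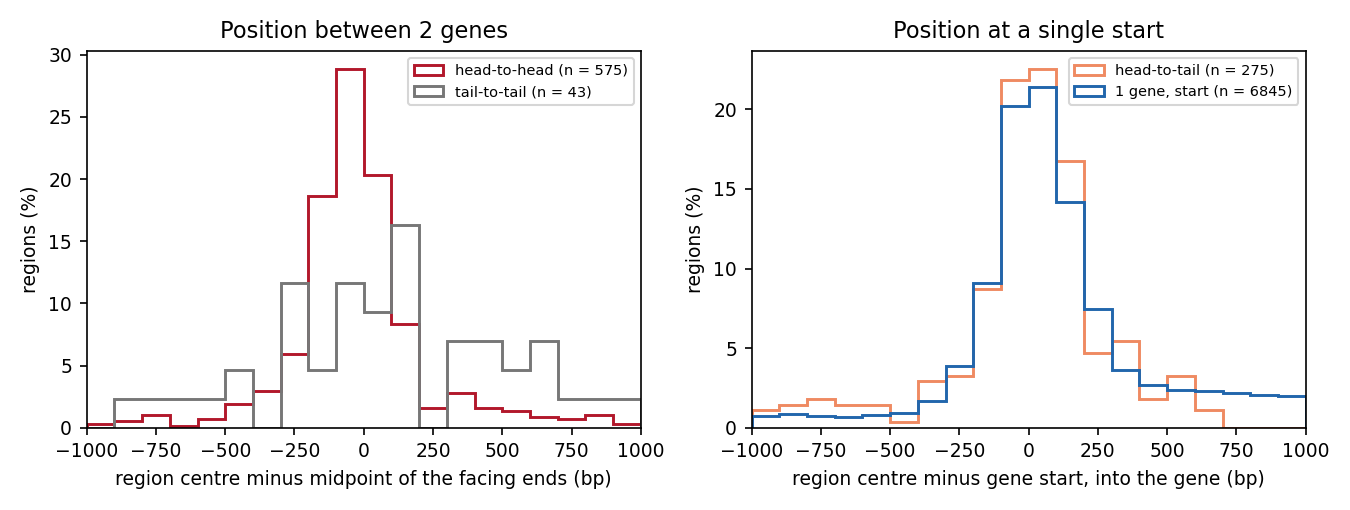
Left, distance of the region centre from the midpoint of the facing gene ends for head-to-head and tail-to-tail regions, in genome direction. Right, distance of the centre from the gene start, positive into the gene, for head-to-tail regions and regions at the start of 1 gene. Head-to-head regions gather near the midpoint, and tail-to-tail regions are spread over the window.

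Among head-to-head regions, rank varied with the distance between the starts. With 100 to under 500 bp between the starts, the median percentiles of 240 regions were 87.4, 90.2, 87.9 and 89.3 from 25000 to 100000 cells, against 77.2, 81.3, 79.6 and 80.9 for 295 regions with under 100 bp. The difference was 8.93 ± 0.84 points (SD, n = 4), positive in 4 of 4 libraries (exact sign-flip permutation p = 0.13). These distance classes were joined after their values were seen. The 38 regions with 500 to under 1000 bp had medians of 85.3, 80.4, 85.3 and 87.8, which at 50000 cells was below the regions with under 100 bp, and 28 of them (73.7%) were found in all 4 libraries. Of the nearer classes, 223 of the 240 regions with 100 to under 500 bp were found in all 4 libraries (92.9%), against 261 of the 295 with under 100 bp (88.5%), and the mean region width was 929 bp against 889 bp.

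Detection in all libraries followed the score in both classes, and little of the difference between them was left at equal score. Among regions with a score of 10 to 14, 80.5%, 60.6%, 66.7% and 47.6% of those at shared ends were found in the 3 other libraries, against 73.0%, 51.4%, 59.6% and 40.4% of single-gene regions. At 25 to 49 the shares were 100%, 99.2%, 99.7% and 99% at shared ends, against 99.6%, 99.1%, 99.3% and 98.6% in single-gene regions. Averaged over score classes with the weights of the shared ends, the difference was 1.4 ± 0.16 percentage points (SD, n = 4), positive in 4 of 4 libraries (exact sign-flip permutation p = 0.13). It was -0.77 points when peaks scoring below the median of their list were dropped, and 0.72 points without the 25000-cell library, where it was positive in 3 of 3 libraries. Here too each list shares the same regions found in all libraries, so the values per library are not separate measurements.

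**Figure D4:**
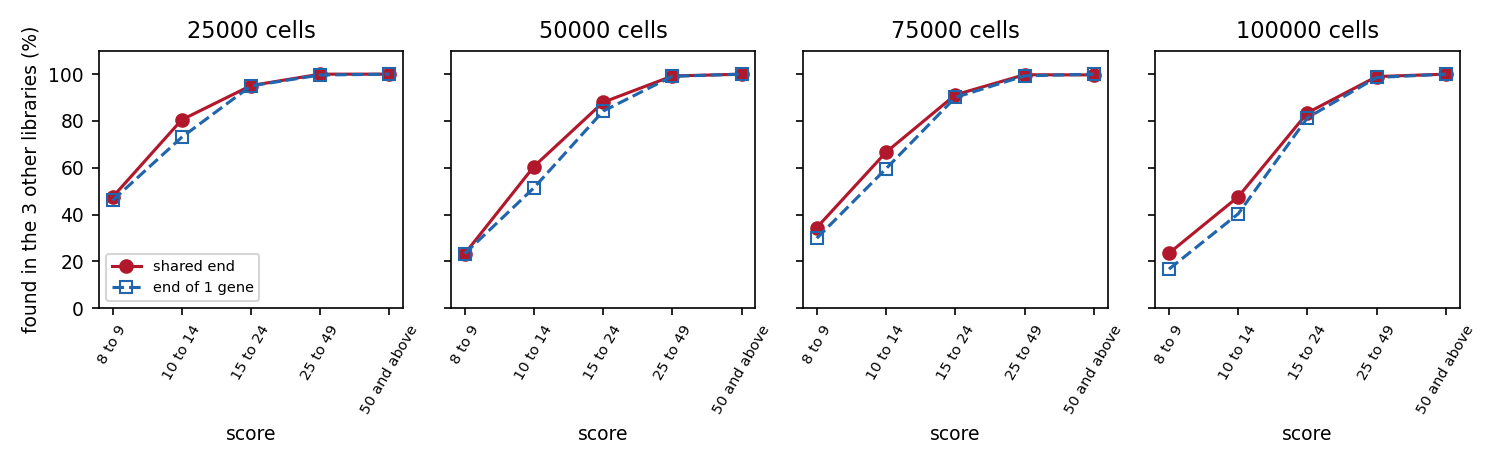
Share of regions found in the 3 other libraries, by score in the library named above each panel, for regions at shared ends and regions at the end of 1 gene. The curves lie close together, with the widest gap at scores of 10 to 14 in each library.

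The number of regions at shared ends with a peak was 1072, 1101, 1094 and 1116 from 25000 to 100000 cells, or 89.3%, 91.7%, 91.1% and 92.9% of them. Those seen in a single library numbered 18, 23, 16 and 30, with highest scores of 14, 19, 19 and 16 and a median of 9 or 9.5. The highest were a region near Hnrnph3 and Pbld2 on chromosome 10, which scored 19 at 50000 cells, and a region near Dand5 and Gadd45gip1 on chromosome 8, which scored 19 at 75000 cells. The first of these directly adjoined another region of Hnrnph3 and Pbld2, without overlap. That other region covered both starts, was found in all 4 libraries and scored 31, 36, 50 and 42. A region between the ends of Rab5if and Sla2 scored 18 at 50000 cells, and at 100000 cells regions near Edc4/Nrn1l and Hspb9/Rab5c scored 16 and 15. Those missing from 1 library numbered 31, 15, 19 and 7, in the same order, and were thus most numerous at 25000 cells. With 1 library per cell number, this cannot be told apart from a difference in depth.

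The regions with the highest mean percentile in all 4 libraries were first of all mitochondrial. The genes of the compact mitochondrial genome lie close together, and 4 of its regions met the rule. The region at ND4/ND5, subunit genes of complex I, scored 9056, 12219, 15492 and 16091 from 25000 to 100000 cells, and those at COX1/COX2 and ND1/ND2 lay between 4572 and 9249. The COX1/COX2 region covered neither of the facing ends. How far these scores depend on the number of mitochondrial genomes per cell was not tested, so they are not read as a degree of openness. Outside the mitochondrial genome, the highest was a region between Khsrp, an RNA-binding protein gene, and the carrier gene Slc25a41 at chr17:57031351-57032450. It scored 153, 197, 184 and 204 from 25000 to 100000 cells. It was followed by the head-to-head region of Mms19, a gene for the assembly of iron-sulphur proteins, and Ubtd1, which scored 108, 193, 162 and 186. The chaperone gene Hsp90b1 of the endoplasmic reticulum and Ttc41 shared a region with scores of 119, 167, 113 and 163. For Tctn3 and Entpd1, whose starts are 41 bp apart, scores were 148, 138, 109 and 136. Each of these was above 99% of the peaks in the mean over the lists.

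Other head-to-head and head-to-tail pairs completed the top group. Abhd17b, which encodes a depalmitoylating enzyme, and 1110059E24Rik had 97, 162, 154 and 190 in a head-to-head region. The start of the nuclear receptor gene Esrra lies beside the sperm channel gene Catsperz, and their region scored 118, 149, 150 and 184. The mitochondrial import gene Tomm40 and the adhesion gene Nectin2 had 95, 151, 136 and 139 in a region between them, at 1201 bp between the genes. Orientation thus varied within the top group.

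Pairs known for divergent promoters were examined as a list of 16, and most had a region in all 4 libraries. By the annotation, 6 of these pairs overlap and fall outside the rule, and 10 are apart. Of those 10, 8 had a region at the shared end in all 4 libraries. Col4a5/Col4a6 and Acat2/Tcp1, with 1274 and 17974 bp between the genes, had none near both. At 17974 bp no centre can lie within 1 kb of both genes, so Acat2/Tcp1 could not meet the rule. Among all head-to-head pairs at most 2 kb apart, 509 of 632 had such a region (80.5%). With under 100 bp the share was 90.9%, and with 100 to under 250 bp 87.8%. The list is thus not read as standing out from other head-to-head pairs. Ranbp1/Trmt2a scored 78, 76, 90 and 79 from 25000 to 100000 cells. Atm/Npat scored 70, 103, 87 and 80. For Brca1, a gene for the repair of DNA breaks by recombination, and the autophagy receptor gene Nbr1, the scores were 61, 107, 77 and 82. Mcm4, a subunit of the replicative helicase, and Prkdc, the catalytic subunit of DNA-dependent protein kinase, had 50, 52, 66 and 82 with 43 bp between them.

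Lower scores were seen at other pairs of the list. Mrps12/Sars2 had 62, 66, 74 and 60. Psmb9/Tap1, genes of antigen presentation, had 21, 40, 41 and 47. Sirt3, a mitochondrial deacetylase gene, and the proteasome gene Psmd13 had the lowest scores of the pairs that are apart, at 20, 28, 31 and 25. Of the 6 overlapping pairs, 5 also had a region near both genes in all 4 libraries, among them the chaperonin genes Hspd1/Hspe1 with 33, 51, 48 and 66 and the collagen IV genes Col4a1/Col4a2 with 13, 20, 10 and 15. The ends of list genes away from their starts also met the rule beside another neighbour, with 11, 11, 16 and 12 at Nbr1/Tmem106a and 12, 13, 18 and 13 at Tap1/Psmb8. Scores of the known pairs thus ran over a wide range.

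Genes used by every cell stood at shared ends more often than protein-coding genes in general. A region in all 4 libraries at a shared end was found for 25 of 64 genes of the nuclear respiratory chain (39.1%), 21 of 60 genes of DNA repair and replication (35.0%) and 26 of 77 mitochondrial ribosomal genes (33.8%), against 1906 of all 21900 protein-coding genes (8.7%). The shares were 28.6% of 35 proteasome genes, 27% of 37 aminoacyl-tRNA synthetase genes and 19.7% of 76 cytosolic ribosomal genes. These genes also have close neighbours more often, since 57.8%, 53.3% and 49.4% of the first 3 lists have an adjacent protein-coding gene within 2 kb, against 23.5% of all protein-coding genes. At any end, 80.0% to 91.9% of the genes in these 6 lists had a region in all 4 libraries, against 9231 of all protein-coding genes (42.2%).

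In the lists of cell-type and signalling genes, 0 to 2 genes per list had a region in all 4 libraries at a shared end. The highest share was 11.1%, in the list of immediate early genes and AP-1 members. Counts this small do not place a list above or below all protein-coding genes. The shares to set beside their counts are those of all protein-coding genes, 8.7% at a shared end and 42.2% at any end. Of 24 genes of TGF-beta signalling, 21 had a region in all 4 libraries at an end, and 1 of them, Tgfb1, at a shared end, where the region beside B9d2 scored 8, 13, 14 and 11. Of 18 immediate early genes and AP-1 members, 16 had one at an end and 2 at a shared end, the growth response gene Ier3 beside Flot1 (16, 37, 32 and 25) and Jund beside Iqcn (15, 9, 14 and 13). None of 30 epithelial genes and none of 20 mesenchymal genes had a region in all 4 libraries at a shared end, although 15 and 9 of them had one at an end. Of these lists 1 TGF-beta, 3 immediate early, 5 epithelial and 4 mesenchymal genes have a protein-coding neighbour within 2 kb. The lists of blood cell, neuron, and liver and muscle genes, of 20 genes each, had 0 at a shared end and 1, 0 and 2 at any end. In the same order, 5, 5 and 0 of them have a protein-coding neighbour within 2 kb. The share with such a neighbour was 25% for blood cell and neuron genes, against 23.5% of all protein-coding genes.

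**Figure D5:**
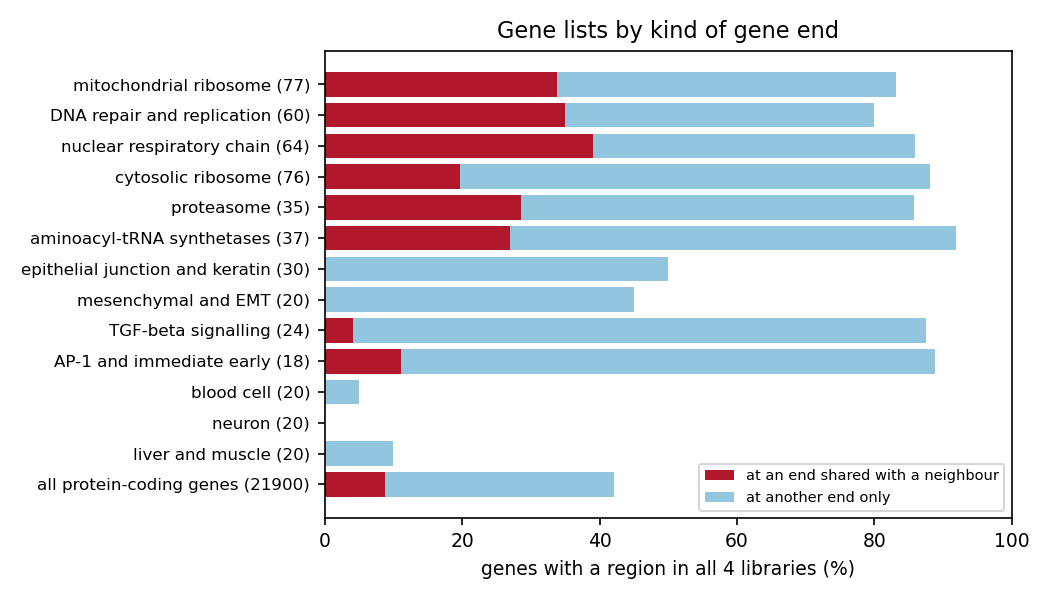
Share of the genes of each list with a region in all 4 libraries, split into genes with such a region at an end shared with a neighbour and genes with such a region at another end only (number of genes in parentheses). The lists of widely used genes reach 19.7% to 39.1% at shared ends, against 8.7% of all protein-coding genes.

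Individual pairs of these lists were named by score. Among DNA repair genes the recombination gene Xrcc3 with Zfyve21 scored 95, 131, 86 and 99 from 25000 to 100000 cells, and Rpa3/Umad1 scored 106, 95, 93 and 86. Of the mitochondrial ribosome, Mrpl41/Pnpla7 scored 96, 94, 86 and 113 and Abhd8/Mrpl34 69, 82, 55 and 90. In the respiratory chain, the complex I gene Ndufs8 beside Aldh3b1 scored 87, 130, 156 and 160, and the start of Ndufv3, another complex I gene, faces Wdr4 in a region with 65, 81, 70 and 77. Rpl37, of the large ribosomal subunit, and Card6 had 80, 94, 98 and 89. The proteasome gene Psmd8 beside Catsperg1 had 73, 65, 93 and 77, and Mrpl32/Psma2, which belongs to 2 of these lists, had 49, 56, 36 and 45. Among tRNA synthetase genes, Ears2 and Ubfd1, whose annotated starts are directly adjacent with 0 bp between them, had 66, 70, 73 and 87. The other regions named for these lists ran by mean percentile from Pcgf2/Psmb3 with 62, 78, 56 and 98 to Lyrm4/Fars2 with 34, 35, 33 and 44.

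Within the 6 lists of widely used genes together, 64 head-to-head regions had median percentiles of 79.2, 77.4, 82.1 and 81.3, against 71.0, 73.9, 73.0 and 74.7 for 161 single-start regions. The difference was 6.83 ± 2.44 points (SD, n = 4), positive in 4 of 4 libraries (exact sign-flip permutation p = 0.13). In all 4 libraries 57 of the 64 (89.1%) and 136 of the 161 (84.5%) were found. Taken from each list, the share found in the 3 other libraries differed by 1.57 ± 2.03 percentage points (SD, n = 4). That difference was positive in 3 of 4 libraries and -0.80 at 50000 cells (exact sign-flip permutation p = 0.375), so detection was not clearly different. Rank thus differed between head-to-head and single starts also within these lists.

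The promoters at head-to-head regions held more CpG and more ETS matches than those at single-gene starts. RefSeq windows from 250 bases before to 50 after the start were available for 1068 genes with a start at a head-to-head region, and they held 24.3 ± 10.0 CpG (SD over promoters). Windows at 6348 single-gene starts held 22.0 ± 11.5, and all 17492 protein-coding promoters held 15.3 ± 12.8. The ETS motif was in 28.6% of head-to-head windows, 17.6% of single-start windows and 11.9% of all. YY1 was in 11.9%, 7.04% and 6.35%, the CCAAT box in 44.2%, 39.3% and 39.2%, NRF1 in 8.99%, 7.72% and 4.88%, and the GC box in 67.5%, 67.8% and 46.3%, in the same order. The TATA box was in 5.15%, 7.10% and 13.3%, AP-1 in 2.25%, 4.05% and 4.56% and the E-box in 10.9%, 10.3% and 7.91%. Windows of 265 starts at head-to-tail regions held 18.7 ± 9.73 CpG (SD over promoters), fewer than at single-gene starts. They held ETS in 22.6% and YY1 in 5.66%. A higher ETS share than at single-gene starts was thus not limited to head-to-head regions. The windows of close divergent genes share sequence, so the head-to-head windows are not independent of each other.

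Since CpG content moved with the class, ranks were also compared among starts grouped by CpG content, a comparison added after seeing the data. A head-to-head region was placed by the mean count of the windows of both genes, and a single start by its own window. Counts were not matched within a CpG class, and the lowest held 127 head-to-head and 2493 single-start regions. In windows with up to 17 CpG, the head-to-head percentiles exceeded those at single starts by 15.3 ± 1.92 points (SD, n = 4). The difference was 4.74 ± 0.75 points at more than 17 and up to 26 CpG and 5.05 ± 1.62 points above that. Each was positive in 4 of 4 libraries (exact sign-flip permutation p = 0.13). In the lowest class 82.7% of head-to-head regions were found in all 4 libraries, against 69.4% of single-start regions, and in the highest class 90.1% against 81.0%.

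Regions near the limit of the rule had scores on both sides that overlapped. Just inside it were regions at Wrap53/Trp53 and Bicral/Tbcc, whose second gene end was 997.5 and 995.5 bp from the centre. Their scores from 25000 to 100000 cells were 52, 74, 77 and 66 at Wrap53/Trp53 and 15, 13, 14 and 15 at Bicral/Tbcc. The Wrap53/Trp53 region named here covered neither start. Another region of that pair covered both starts and scored 10, 17 and 9 from 25000 to 75000 cells, with no peak at 100000 cells. At Bicral/Tbcc, another region covered both facing ends and scored 16, 49, 17 and 37. Just outside the limit, at 1001.5 bp or 1002.5 bp, regions at Wdr73/Nmb scored 20, 29, 24 and 24, at Atp13a1/Gmip 22, 19, 16 and 23, and at Vac14/Mtss2 8, 9, 10 and 15. Of all members, 1174 lay near 2 genes, 26 near 3 and 1, on the mitochondrial chromosome, near 5.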

How the data were processed

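Peak lists of 4 NMuMG libraries were used. The authors deposited 1 list per library with a whole-number score per peak, and how that score was computed is not given in the sources used here. Bowtie 0.12.8, bedtools 2.17.0, Picard 1.107, cutadapt and SAMtools are named in the submitters' processing notes, as is mm10, which was taken as the build. The names of the deposited lists point to PeaKDEck as the peak caller, and its settings and any Tn5 shift of reads were not found in those sources. The lists hold scores of 8 and above, so weaker signal would go unlisted.

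Regions were built and classified in Python 3.11.15 with pandas 2.3.3 and scipy 1.17.1, from the RefSeq gene table of GRCm38.p6, and tested on simulated data. Strand came from the RefSeq promoter table. The rank of a score is its percentile among the peaks of its list. Differences were computed within each library and tested by an exact two-sided sign-flip permutation over the 4 libraries, without tests between cell numbers. Shares have exact Clopper-Pearson 95% intervals.

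Named were, by rule, the 10 regions with the highest mean percentile, the 5 highest of a single library, the 3 nearest to each side of the limit, all at known divergent pairs and up to 3 per gene list. Some regions that this rule names are not reported here. The members and lists were chosen with earlier results of these data known. Alternatives were other windows, positions, overlaps, score thresholds, chromosomes and genes, regions with 1 peak per library, and leaving out each library.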

Additional observations from a re-analysis of the deposited data

How the results depend on the processing

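Of 64 differences computed under alternatives, 62 kept a positive sign in every library. The exceptions were both of detection at equal score, which was 1.4 percentage points in the report, was -0.77 when peaks scoring below the median of their list were dropped (0 of 4 libraries positive) and was 0.71 with regions of 1 peak per library (3 of 4 positive). That difference was 1.60 with a 500 bp window, 1.93 with any base of the region, 1.94 with all annotated genes and between 0.72 and 1.57 when each library was left out. The cause was not tested. The number of regions was 1942 with a 2 kb window and 2053 with all annotated genes. The score difference between shared and single-gene ends was 9.05 points with an overlap of 100 bp, 9.93 with peaks above the median, 12.1 with all genes and 9.29 with 1 peak per library. The difference in peak width was 49.2 bp with 500 bp, 34.9 with 2 kb, 28.8 with peaks above the median, 54.2 with all genes and 55.4 with 1 peak per library, and that in detection was 3.43 points with peaks above the median and 9.41 with all genes. The share of pairs with a region, 33.1%, was 25.5% with 500 bp, 46.3% with 2 kb, 38.9% with any base, 25.6% with peaks above the median, 24.3% with all genes and 21.7% with 1 peak per library. Head-to-head against single starts, 8.41 points, gave 6.97 with 500 bp, 10.4 with all genes, 7.47 with 1 peak per library, 15.3, 4.74 and 5.05 in the low, middle and high CpG classes and 6.83 in the gene lists, the last 4 chosen after seeing the data. Leaving out a library moved no other difference by more than the spread between libraries. The region classes were compared within each library. No paired analysis was possible because, between cell numbers, 1 library each leaves no replicate numbers to pair. Depth is unknown, and 1 library per cell number limits every statement on cell number.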

Other observations

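Regions near overlapping genes only, which were left out of both classes, numbered 527, and 439 of them were found in all 4 libraries (83.3%, 95% Clopper-Pearson interval 79.8 to 86.4). Their merged regions had a median width of 900 bp. Regions farther than 1 kb from every protein-coding gene end numbered 44353, of which 39.1% were found in all 4 libraries, with a median width of 550 bp.

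Regions at shared ends made up a different part of the regions on each chromosome. Chromosome 17 had 100 of them among 2364 regions (4.23%) and chromosome 7 had 128 among 3458 (3.70%), whereas chromosome 18 had 12 among 1734 (0.69%). Per 1000 protein-coding genes this was 94.4, 63.1 and 23.5.

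Region centres were not placed alike on the strands. At single starts, the centre lay a median of 17.5 bp inside the gene for 3446 genes on the plus strand and 73.5 bp inside for 3399 genes on the minus strand. In head-to-head regions 239 centres lay in the lower gene, 139 in the upper gene and 197 between them. The lower-coordinate side thus held the larger distance or number in both cases, and the cause was not tested.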
